A study of Homo sapiens with 19 samples.

Results

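Expression of 45 genes of the integrated stress response and the unfolded protein response was followed after siRNA against INO80 or MCRS1 in HepG2, a human line from a liver cancer. The genes were chosen by symbol, from textbook membership of these pathways and with earlier results of these data known. They came from 34825 gene symbols in each of the 2 tables of normalized counts. They were 5 controls of the integrated stress response, 7 of its transcription factors, 20 targets of ATF4, 3 controls of the unfolded protein response and 10 targets of XBP1 or ATF6. INO80 is the ATPase of the chromatin remodelling complex of that name. MCRS1 is a subunit of that complex and of another, named NSL.

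All 19 libraries were mRNA-seq libraries of HepG2 cells harvested 72 h after transfection with 50 nM siRNA. The INO80 experiment had 3 libraries each of a non-targeting control (NTG) and of a pair of INO80 siRNAs, siINO80#1 and siINO80#2. The drug experiment had DMSO NTG (2 libraries), DMSO siMCRS1 (3), EPZ-6438 NTG (3) and EPZ-6438 siMCRS1 (2), with 1 µM EPZ-6438, an inhibitor of the histone methyltransferase EZH2, or DMSO given 3 days before transfection. A single siRNA was used for MCRS1, so its effect and an off-target effect of that siRNA cannot be told apart. Nothing in the labels says that replicates were separate cultures, and the p-values then measure the spread between these libraries, which may be technical.

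In the integrated stress response the kinases PERK (gene EIF2AK3) and GCN2 (gene EIF2AK4), among others, phosphorylate the translation factor eIF2 alpha, which lowers protein synthesis in general and raises translation of the ATF4 mRNA. ATF4 then switches on genes for amino acid synthesis, amino acid transport, tRNA charging and stress adaptation. In the unfolded protein response of the endoplasmic reticulum, PERK acts beside IRE1 (gene ERN1), which splices the XBP1 mRNA, and ATF6, which is cut to release a transcription factor. Liver cells secrete much protein and use these arms to adjust the folding capacity of the endoplasmic reticulum. Gene-level mRNA values do not show eIF2 alpha phosphorylation, ATF4 translation, XBP1 splicing or ATF6 cleavage.

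ATF4 binds a C/EBP-ATF element, and XBP1 and ATF6 bind the endoplasmic reticulum stress element (ERSE), so these letters were looked up in the promoters of the members. RefSeq windows on GRCh38.p14, 250 bases before to 50 bases after the start site, were held for 41 of the 45 members; NUPR1, PSPH, SHMT2 and ALDH1L2 had no entry. The letters TGATGNAA, on either strand, stood in 6 of 17 windows of ATF4 targets (35.3%), in 1 of 10 windows of XBP1 or ATF6 targets, and in 3.62% of 35116 windows of all genes. Windows of ATF3, a transcription factor that ATF4 induces, and PPP1R15B, a phosphatase subunit that acts on eIF2 alpha, also held them. They are shown 5′ to 3′ on the strand of the gene, with the fixed letters of the match in capitals. In these members a letter match and expression values can be read side by side, except CHAC1, which was too low to be tested.
ASNS (chr7:97872463-97872482, minus strand): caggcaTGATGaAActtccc
SLC3A2 (chr11:62881730-62881748, plus strand): gactccTTaCATCAgctcc
SLC7A1 (chr13:29595668-29595687, minus strand): cactgcTGATGaAAcctggc
AARS (chr16:70289680-70289699, minus strand): tcgcagTTgCATCAgccaag
NARS (chr18:57621809-57621828, minus strand): gctctcTGATGcAAcgccgg
CHAC1 (chr15:40953256-40953275, plus strand): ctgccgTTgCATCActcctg
ATF3 (chr1:212565210-212565229, plus strand): tcaggaTGATGgAAggctgt
PPP1R15B (chr1:204412031-204412050, minus strand): cccggcTGATGcAAcctcac
HERPUD1 (chr16:56931960-56931979, plus strand): ggcgggTTgCATCAgcccgt

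The ERSE, searched as CCAAT and CCACG spaced by 9 bases on either strand, stood in 2 of 10 windows of XBP1 or ATF6 targets and in that of XBP1 itself, against 0.0769% of all windows. The other element of this arm, TGACGTGG, stood in 0 of 41 windows of members and in 0.729% of all windows. A match is a description of these letters, not evidence that a factor binds there, and the matches did not overlap one another. The 3 ERSE windows are given in the same way.
XBP1 (chr22:28800597-28800627, minus strand): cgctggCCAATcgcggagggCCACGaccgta
CRELD2 (chr22:49918548-49918578, plus strand): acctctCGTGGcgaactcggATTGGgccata
CALR (chr19:12938378-12938408, plus strand): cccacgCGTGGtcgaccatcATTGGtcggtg

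The targeted genes were checked first. INO80 fell by 1.05 ± 0.08 on the log2 scale (SE) with siINO80#1 and by 1.46 ± 0.08 with siINO80#2, and MCRS1 fell by 3.66 ± 0.23 with siMCRS1 in both treatments. INO80 was also lower with siMCRS1, at -0.27 in DMSO and -0.35 in EPZ-6438 (adjusted p = 0.039 and 9.7e-03), and the first of these calls was lost in 10 of 20 alternatives. Recovered counts per library, gene counts before the scaling to a common depth, ran from 17093574 to 25369547 for the INO80 siRNAs and their NTG, and from 26038505 to 47397233 for the drug experiment. At that depth a floor of 3 counts was worth at most 3.58 and 4.3 normalized counts, for counting error only. Hepatocyte markers were abundant, with ALB at 109073 or more normalized counts in every library, while of 5 markers of other cell types KRT5 (basal epithelium) did not exceed 1.05, COL1A2 (fibroblast) 24 and PTPRC (leukocyte) 35.9. CD68 (macrophage) was at 579 to 1597 and PECAM1 (endothelium) at 138 to 326 over both experiments. PECAM1 was higher with siINO80#2 (0.49) and CD68 lower with siMCRS1 in EPZ-6438 (-0.93), and the 5 markers summed to 1301 to 1499 in NTG, 1165 to 1400 in siINO80#1, 964 to 1748 in siINO80#2, 1184 to 1236 in DMSO NTG, 890 to 1077 in DMSO siMCRS1, 1071 to 1809 in EPZ-6438 NTG and 742 to 892 in EPZ-6438 siMCRS1. Of 8 hepatocyte markers, HNF4A was lower in all 4 siRNA comparisons (-0.45, -1.02, -0.55 and -0.55) and ALB, TTR and APOA1 were lower with siINO80#2 (-0.57, -0.59 and -0.84), while ALB was higher with siMCRS1 in EPZ-6438 (0.57). The 8 markers summed to 688755 to 836900 in NTG, 794368 to 973576 in siINO80#1 and 561930 to 777959 in siINO80#2. In the drug experiment they summed to 909463 to 1032356 in DMSO NTG and 978916 to 1174348 in DMSO siMCRS1. With EPZ-6438 they summed to 987558 to 1099467 in NTG and 1139828 to 1259983 in siMCRS1, without overlap. The part of these markers in the results was not tested. The library siINO80#2 replicate C had the highest sum of normalized counts of the INO80 experiment, 22094330 against 18837086 to 20380324 in the others.

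With either INO80 siRNA, most ATF4 targets among the members were lower. Of the 10 targets of XBP1 or ATF6, 3 were called with siINO80#1 and 5 with siINO80#2. These calls are set beside the shares of all genes below. Tests were made with limma on log2(normalized count + 1), with Benjamini-Hochberg adjustment over all 14034 genes tested in the INO80 experiment and a threshold of 0.05. Of 19 ATF4 targets tested among the members, 15 were lower with siINO80#1 and 18 with siINO80#2, and 0 were higher with either. Their medians were -0.80 and -1.03 on the log2 scale. In a second list of 19 tested ATF4 targets, given below, 14 were lower and 3 higher with siINO80#1, and 14 and 4 with siINO80#2. Over all genes 20.8% were lower and 20.7% higher with siINO80#1, and 28.4% lower and 26.6% higher with siINO80#2, with a median of 0.00 in both. Of all 44 members tested, 20 were lower and 3 higher with siINO80#1, and 28 were lower and 4 higher with siINO80#2. On rescaling to equal totals the share of called genes that were higher went from 49.9% to 39.8% with siINO80#1 and from 48.3% to 38.7% with siINO80#2, and the members lower were 20 and 29. Both comparisons used the same 3 NTG libraries and are not independent of each other. CHAC1, an ATF4 target that degrades glutathione, was the member below the filter of a mean of 10 normalized counts. Its NTG libraries held 4.46, 3.08 and 4.8 normalized counts, its siINO80#1 libraries 1.19, 0.991 and 0.875, and its siINO80#2 libraries 0, all at or near the floor. In bulk libraries, fewer cells that express a gene and less RNA per cell cannot be told apart.

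**Figure D1:**
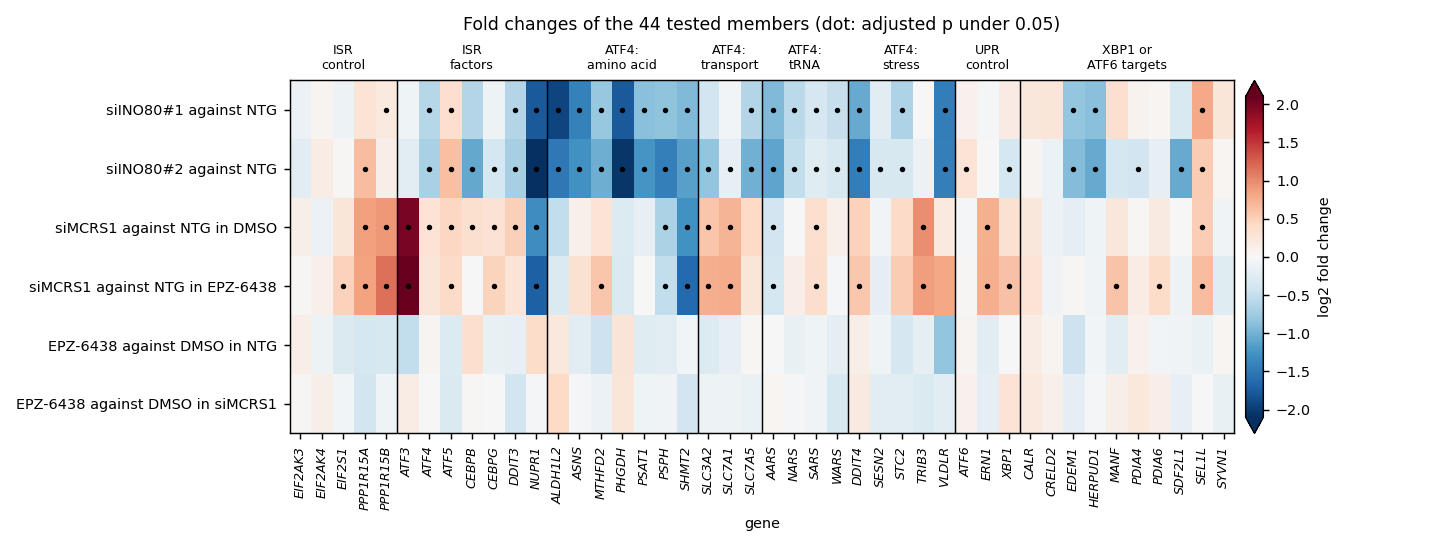
Colour gives the log2 fold change of each of the 44 tested members (columns, grouped by role) in 6 comparisons (rows), and a black dot marks an adjusted p under 0.05; colours stop at 2.1 on either side, which only ATF3 with siMCRS1 in EPZ-6438 exceeds. Most ATF4 targets are blue and dotted in the 2 upper rows, the siMCRS1 rows mix both colours, and the 2 EPZ-6438 rows hold 0 dots.

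The mRNA of ATF4 itself was lower. Its NTG libraries held 7257, 7054 and 7738 normalized counts, its siINO80#1 libraries 5134, 4564 and 4899, and its siINO80#2 libraries 4716, 4772 and 4318. Every library with an INO80 siRNA lay below every NTG library. The log2 fold changes were -0.60 ± 0.07 (adjusted p = 1.1e-04) and -0.68 ± 0.07 (2.4e-05). DDIT3, which encodes the pro-apoptotic factor CHOP, went from 356, 330 and 353 to 228, 251 and 199 with siINO80#1 and to 239, 247 and 164 with siINO80#2, again with no overlap with NTG (-0.62 ± 0.16 and -0.69 ± 0.16, adjusted p = 8.5e-03 and 3.1e-03). RefSeq places DDIT3 across the gene MARS1, and reads of the overlap are uncertain.

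NUPR1, a small stress-induced chromatin protein, was the lowest of the transcription factors relative to NTG. It had 1199, 1238 and 1490 normalized counts in NTG, 390, 385 and 367 with siINO80#1 and 302, 240 and 395 with siINO80#2. The log2 fold changes were -1.77 ± 0.16 and -2.09 ± 0.16 (adjusted p = 1.3e-05 and 2.2e-06). The other factors did not share one direction. ATF3 held 259, 171 and 208 in NTG, 184, 179 and 233 with siINO80#1 and 178, 217 and 148 with siINO80#2, overlapping groups whose differences of -0.09 and -0.23 did not pass the test. ATF5, a factor that is translated like ATF4 and is tied to the mitochondrial stress response, was higher, from 644, 710 and 660 to 869, 864 and 859 and to 979, 860 and 1324 (0.36 ± 0.13 and 0.63 ± 0.13, adjusted p = 0.045 and 2.0e-03). The first of these calls was lost in 12 of 20 alternatives, edgeR among them, and the second in 0. CEBPB and CEBPG, partners of ATF4 on DNA, passed only with siINO80#2 (-1.07 ± 0.39 and -0.37 ± 0.11, adjusted p = 0.039 and 0.014). The CEBPB call was lost in 5 of 20 alternatives and that of CEBPG without NTG replicate C. The difference between the siRNAs did not pass for either (adjusted p = 0.44 and 0.1).

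Among the controls of the response, EIF2AK3 held 1270, 1071 and 1180 in NTG, 1178, 933 and 1123 with siINO80#1 and 1067, 999 and 906 with siINO80#2. The siINO80#2 libraries all lay below NTG, but -0.24 ± 0.11 did not pass (adjusted p = 0.071), though it passed in 4 of 20 alternatives. PPP1R15A (GADD34), the inducible phosphatase subunit that reverses eIF2 alpha phosphorylation, was higher with siINO80#2, at 1471, 1101 and 1665 against 956, 908 and 808 (0.65 ± 0.13, adjusted p = 1.8e-03). With siINO80#1 it held 1042, 1120 and 1093, above every NTG library, and 0.29 ± 0.13 did not pass (adjusted p = 0.11) but passed in 3 of 20 alternatives. PPP1R15B, its constitutive counterpart, was 0.21 higher with siINO80#1 (adjusted p = 0.044), a call lost in 10 of 20 alternatives. EIF2AK4 and EIF2S1, which encodes eIF2 alpha, did not pass with either siRNA, with values between -0.11 and 0.15.

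The 7 enzymes of amino acid and one-carbon metabolism were all lower with both INO80 siRNAs, with medians of -0.93 and -1.27. Of all 14034 genes tested, 2409 were lower with both. PHGDH, the first enzyme of serine synthesis, had 2467, 2755 and 2883 normalized counts in NTG, 857, 797 and 715 with siINO80#1 and 705, 846 and 463 with siINO80#2 (-1.77 ± 0.18 and -2.05 ± 0.18, adjusted p = 3.2e-05 and 6.0e-06). ALDH1L2, a mitochondrial folate enzyme, had 213, 248 and 280 in NTG, 70.3, 65.4 and 56 with siINO80#1 and 71.8, 89.6 and 99.2 with siINO80#2 (-1.93 ± 0.17 and -1.50 ± 0.17, adjusted p = 1.1e-05 and 2.7e-05). In neither gene did a library with an INO80 siRNA come near the lowest NTG library. ASNS, asparagine synthetase, went from 1740, 2222 and 1830 to 750, 784 and 621 and to 878, 891 and 642 (-1.42 ± 0.14 and -1.27 ± 0.14). The promoter window of ASNS held a TGATGNAA match and that of PHGDH held none, and a link between match and fall was not tested.

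The rest of the serine and folate route moved the same way. PSAT1 and PSPH, which follow PHGDH in serine synthesis, were at -0.87 and -0.84 with siINO80#1 and at -1.24 and -1.44 with siINO80#2. SHMT2 and MTHFD2, which move the serine carbon into mitochondrial folate, were at -0.93 and -0.80, and at -1.14 and -1.03. ASNS, PSAT1, PSPH and MTHFD2 have pseudogenes named in RefSeq, as have 6 other members (ATF4, SLC7A5, WARS, AARS, NARS and XBP1), and reads shared with such copies were split by estimation.

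The 4 tRNA synthetases among the members, WARS, SARS, AARS and NARS, were lower with both siRNAs, between -0.35 and -0.93 with siINO80#1 and between -0.25 and -1.11 with siINO80#2. The smallest of these, SARS with siINO80#2, was lost without NTG replicate B or siINO80#2 replicate B. Of the 16 other cytosolic tRNA synthetases, which are not all ATF4 targets, 13 were lower and 1 higher with siINO80#1, and 14 were lower and 2 higher with siINO80#2. Their medians were -0.46 and -0.51, near those of the 4 members (-0.52 and -0.43). LARS and YARS were among the lowest of them, at -0.85 and -0.64, and at -1.30 and -1.03, while HARS was higher at 0.41 and 0.63. Beside these counts, 20.8% and 28.4% of all genes were lower, and 20.7% and 26.6% higher.

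Of the 3 amino acid transporters, 1 was lower with siINO80#1 and 3 with siINO80#2, beside 20.8% and 28.4% of all genes. SLC7A5, the light chain of a large neutral amino acid transporter, held 12976, 14110 and 13093 in NTG, 8660, 8981 and 8508 with siINO80#1 and 6516, 7077 and 6426 with siINO80#2. Every siINO80#2 library lay below every siINO80#1 library, and all of these below NTG (-0.62 ± 0.07 and -1.01 ± 0.07). Between the siRNAs the difference was -0.39 ± 0.07 (adjusted p = 3.8e-03). Its heavy chain SLC3A2 was at -0.83 ± 0.16 with siINO80#2 (adjusted p = 1.0e-03) and at -0.41 ± 0.16 with siINO80#1, which did not pass (adjusted p = 0.054) but passed in 9 of 20 alternatives. SLC7A1, a carrier of arginine and lysine, was at -0.18 with siINO80#2 (adjusted p = 0.042), a call lost in 12 of 20 alternatives.

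Of the stress effectors, VLDLR, a lipoprotein receptor, fell from 370, 341 and 453 to 125, 122 and 180 with siINO80#1 and to 135, 143 and 149 with siINO80#2 (-1.45 ± 0.16 and -1.43 ± 0.16, adjusted p = 6.3e-05 and 3.4e-05). DDIT4 (REDD1), an inhibitor of mTORC1 signalling, fell from 1660, 874 and 1477 to 669, 482 and 725 and to 464, 684 and 322 (-1.06 ± 0.29 and -1.46 ± 0.29, adjusted p = 0.013 and 1.5e-03). Its NTG library B stood well below the other NTG libraries, but above all libraries with an INO80 siRNA. The siINO80#1 call was lost without NTG replicate A, NTG replicate C or siINO80#1 replicate B. STC2, a secreted glycoprotein, was lower with both (-0.64 and -0.33, the second lost in 4 of 20 alternatives), and SESN2, a leucine sensor, with siINO80#2 (-0.33). TRIB3, a pseudokinase that restrains ATF4 signalling, was the tested ATF4 target that passed with neither, at 3258, 3632 and 3741 in NTG, 3310, 3652 and 3584 with siINO80#1 and 3558, 4159 and 2329 with siINO80#2 (-0.01 ± 0.17 and -0.12 ± 0.17).

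**Figure D2:**
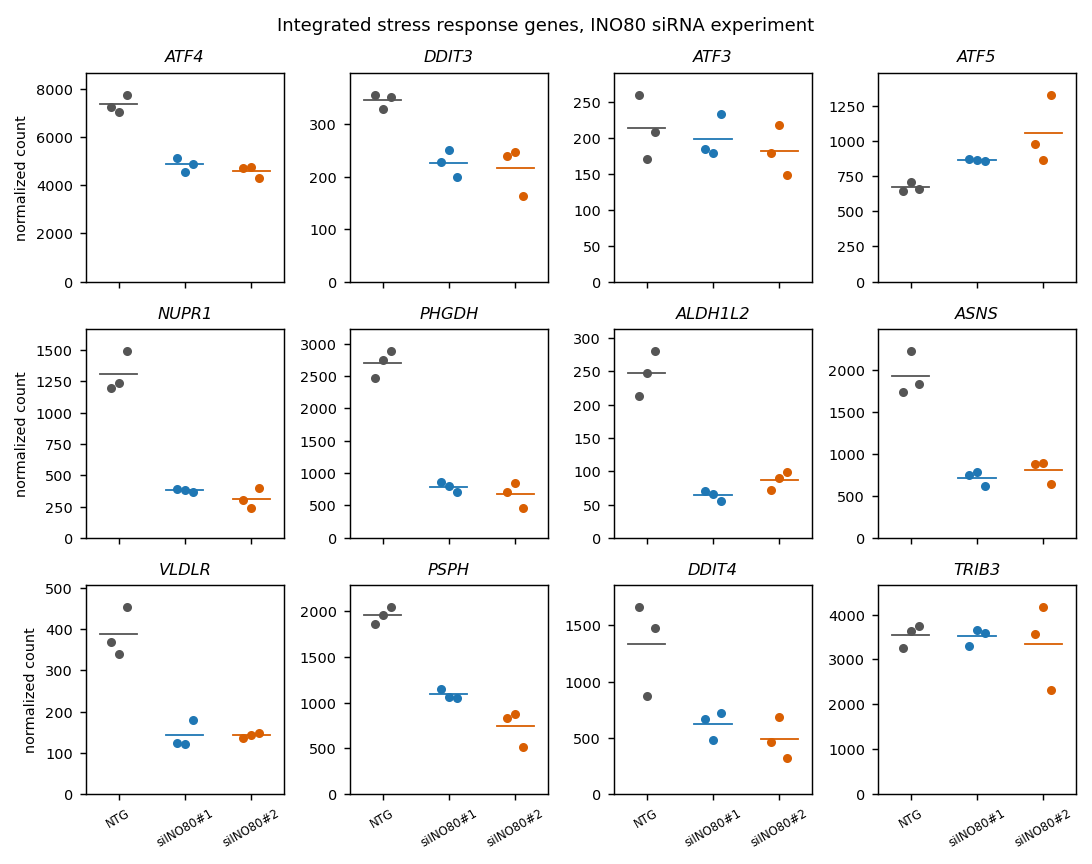
Each panel plots 1 gene of the integrated stress response in the INO80 experiment, with normalized counts from 0 on the vertical axis, 1 point per library (3 per group) and a line at the group mean. ATF4, DDIT3, NUPR1, PHGDH, ALDH1L2, ASNS, VLDLR, PSPH and DDIT4 lie lower with both INO80 siRNAs than in NTG with no overlap, ATF5 lies higher, and ATF3 and TRIB3 overlap.

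Of 10 XBP1 or ATF6 targets, 2 were lower and 1 higher with siINO80#1, and 4 were lower and 1 higher with siINO80#2. Their medians were 0.15 and -0.27. Among all genes 20.8% and 28.4% were lower with these siRNAs, and 20.7% and 26.6% higher. HERPUD1, which binds the ubiquitin ligase complex of the endoplasmic reticulum, held 2953, 2353 and 2984 in NTG, 1583, 1454 and 1439 with siINO80#1 and 1363, 1425 and 1181 with siINO80#2 (-0.88 ± 0.10 and -1.06 ± 0.10, adjusted p = 9.1e-05 and 1.3e-05). EDEM1, which hands misfolded glycoproteins to degradation, went from 3673, 3850 and 3770 to 2160, 2126 and 2100 and to 2200, 2169 and 1684 (-0.82 ± 0.10 and -0.91 ± 0.10, adjusted p = 7.6e-05 and 1.9e-05). SEL1L, the scaffold of the same degradation machinery, rose instead, from 3140, 3030 and 3092 to 5549, 5057 and 5369 with siINO80#1 and 4436, 4514 and 4422 with siINO80#2 (0.79 ± 0.06 and 0.53 ± 0.06, adjusted p = 6.1e-06 and 3.5e-05). In these 3 genes of the degradation pathway no library with an INO80 siRNA overlapped NTG. SYVN1, the ubiquitin ligase that SEL1L holds, did not pass with either (0.26 and 0.04). It passed as higher with siINO80#1 with the replicate letter as a block, and without siINO80#2 replicate C.

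Of the 6 chaperone and folding genes in this list 0 passed with siINO80#1, and PDIA4 and SDF2L1 were lower with siINO80#2. Without siINO80#2 replicate C, or with only the groups compared in the fit, CALR (0.23), CRELD2 (0.26) and MANF (0.36) passed as higher with siINO80#1. That makes 3 of 6 higher, beside SDF2L1 as lower in the second of these settings. PDIA4, a disulfide isomerase, held 10616, 9361 and 10444 in NTG, 11258, 9683 and 11008 with siINO80#1 and 7734, 8177 and 7016 with siINO80#2. Only the siINO80#2 libraries stood apart, with a fold change of -0.41 ± 0.09 (adjusted p = 2.7e-03) against 0.07 ± 0.09 with siINO80#1. SDF2L1, a cofactor of endoplasmic reticulum chaperones, went from 445, 431 and 439 to 343, 395 and 320 and to 225, 311 and 131 (-0.32 ± 0.24 and -1.06 ± 0.24, adjusted p = 0.32 and 3.4e-03). Without siINO80#2 replicate C the second value was -0.72 and still passed. With the deposited scaling, all libraries and no replicate block, CRELD2, MANF, PDIA6 and CALR passed with neither siRNA. SDF2L1 passed as lower with siINO80#1 with only the groups compared, and PDIA6 as lower with siINO80#2 with quantile normalization. MANF, a secreted folding factor, had 302 and 284 normalized counts in siINO80#2 replicates A and B and 84.1 in replicate C, and its siINO80#2 difference of -0.37 ± 0.39 became 0.22 without that library, passing in neither case.

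Of the controls of the unfolded protein response, XBP1 was at 6080, 6601 and 6729 in NTG, at 7197, 6912 and 7847 with siINO80#1 and at 4493, 5760 and 4802 with siINO80#2. The siINO80#1 libraries lay above NTG without passing (0.18 ± 0.10, adjusted p = 0.17), and the siINO80#2 libraries lay below it (-0.37 ± 0.10, adjusted p = 7.2e-03). ERN1 overlapped in all groups, with 714, 636 and 694 in NTG, 626, 671 and 706 with siINO80#1 and 654, 679 and 733 with siINO80#2 (-0.03 and 0.01). ATF6 rose with siINO80#2, from 1290, 1346 and 1168 to 1521, 1379 and 1725 (0.28 ± 0.09, adjusted p = 0.021), and held 1365, 1358 and 1312 with siINO80#1 (0.09 ± 0.09, adjusted p = 0.47). The ATF6 call was lost without NTG replicate C or siINO80#2 replicate C, and on rescaling to equal totals.

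**Figure D3:**
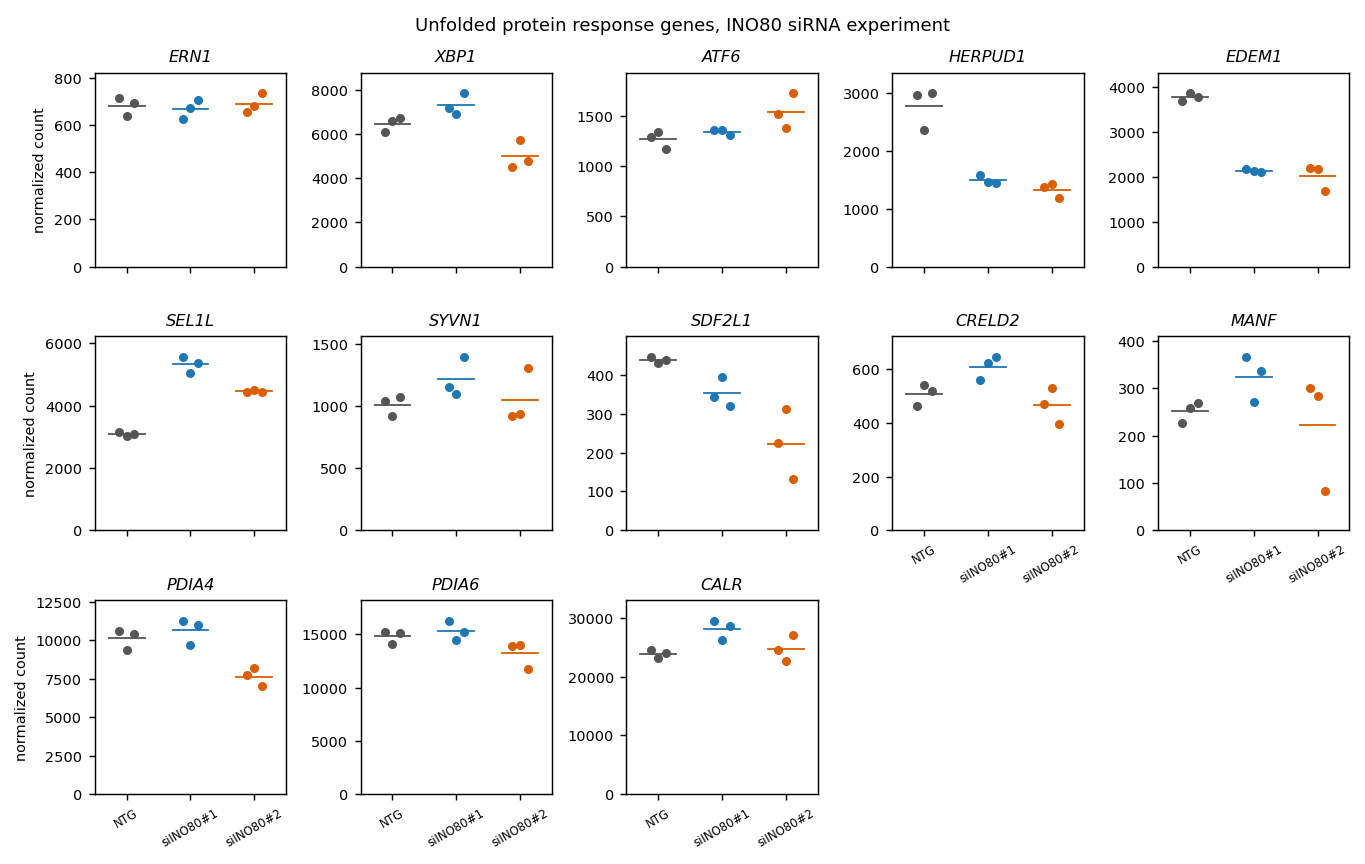
Each panel plots 1 gene of the unfolded protein response in the INO80 experiment, with normalized counts from 0 on the vertical axis, 1 point per library (3 per group) and a line at the group mean. HERPUD1 and EDEM1 lie lower and SEL1L higher with both INO80 siRNAs, while XBP1, SDF2L1 and PDIA4 lie lowest with siINO80#2.

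Compared directly, siINO80#2 against siINO80#1, 7 of 44 members were lower and 0 higher, where 12.6% of all genes were lower and 9.48% higher. They were XBP1 (-0.55 ± 0.10, adjusted p = 3.2e-03), 4 of its class of targets, namely PDIA4 (-0.48 ± 0.09, 4.3e-03), SDF2L1 (-0.74 ± 0.24, 0.05), CRELD2 (-0.39 ± 0.11, 0.033) and SEL1L (-0.26 ± 0.06, 0.013), and the ATF4 targets PSPH (-0.60 ± 0.17, 0.027) and SLC7A5. CRELD2 held 464, 541 and 519 in NTG, 559, 625 and 645 with siINO80#1 and 470, 531 and 398 with siINO80#2, so that siINO80#2 overlapped NTG and lay below siINO80#1. PSPH held 1865, 1956 and 2041, then 1153, 1062 and 1055, then 830, 878 and 511, with no overlap between any of the groups. The count was 3 without siINO80#1 replicate C, 4 without siINO80#1 replicate A or replicate B, and 14 without siINO80#2 replicate B. The XBP1, PDIA4 and SLC7A5 calls held in all 20 alternatives, and that of SDF2L1, whose adjusted p was just under 0.05, in 4. Without siINO80#2 replicate C the calls of SDF2L1 (then -0.41) and CRELD2 were lost.

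In the drug experiment, siMCRS1 was compared with NTG within DMSO and within EPZ-6438, and these comparisons share no library. More members were higher than lower: of 44, those higher were 14 in DMSO and 17 in EPZ-6438, and 4 were lower in each. Over the 14312 genes tested, 23.1% were higher and 24.6% lower in DMSO, and 26.8% higher and 26.9% lower in EPZ-6438. The members' medians were 0.22 and 0.27, beside 0.00 and 0.01 for all genes. Stress-response regulators and transporters were among those that rose, while the serine and folate enzymes SHMT2 and PSPH, with NUPR1 and AARS, fell in both.

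These counts depend on the scaling. The deposited values sum to more in siMCRS1 libraries (37296662 to 40177962) than in NTG libraries (31332572 to 33672033). On rescaling to equal totals the median of all genes moved to -0.23 in both treatments, 27.1% of the called genes were higher in DMSO and 30.2% in EPZ-6438, against 48.4% and 49.9% as deposited, and the members split into 7 higher and 11 lower, and 10 higher and 9 lower. With quantile normalization, which left those shares at 48.1% and 50.1%, the members were 11 higher and 9 lower, and 11 higher and 8 lower. The rises named next of ATF3, PPP1R15A, PPP1R15B, TRIB3, ERN1, SLC7A1 and SLC3A2 kept their call under every scaling in both treatments. Lost on rescaling to equal totals were the rises of ATF4, ATF5, CEBPB, CEBPG, DDIT3, SARS and SEL1L in DMSO, and of ATF5, DDIT4, EIF2S1, MANF, MTHFD2, PDIA6 and SARS in EPZ-6438. The count in DMSO was 9 without DMSO siMCRS1 replicate 2, 10 without DMSO NTG replicate 1 and 11 without DMSO NTG replicate 3, and that in EPZ-6438 was 10 without EPZ-6438 siMCRS1 replicate B.

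Among the transcription factors, ATF3, a stress-induced factor that did not pass with the INO80 siRNAs, had the largest fold change of any member in both treatments. It held 177 and 166 normalized counts in DMSO NTG, 578, 824 and 678 in DMSO siMCRS1, 80.8, 171 and 124 in EPZ-6438 NTG and 594 and 973 in EPZ-6438 siMCRS1. The lowest siMCRS1 library, at 578, was far above the highest NTG library, at 177. The log2 fold changes were 1.99 ± 0.30 and 2.66 ± 0.30 (adjusted p = 3.8e-04 and 4.8e-05). DDIT3 held 327 and 383, then 423, 591 and 506 in DMSO, and 298, 313 and 327, then 352 and 408 in EPZ-6438 (0.50 ± 0.16 and 0.28 ± 0.16, adjusted p = 0.024 and 0.17). The siMCRS1 libraries lay above NTG in both treatments, but the EPZ-6438 difference did not pass.

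ATF4 held 9484 and 9299 in DMSO NTG, 11298, 11737 and 11399 in DMSO siMCRS1, 9127, 11066 and 9045 in EPZ-6438 NTG and 10750 and 12367 in EPZ-6438 siMCRS1. The 0.29 ± 0.11 in DMSO had an adjusted p of 0.05, under the threshold before rounding, and 0.25 ± 0.11 in EPZ-6438 did not pass (0.078). With quantile normalization the DMSO value turned to -0.03, and the call was lost in 12 of 20 alternatives. ATF5 held 1175 and 919, then 1531, 1408 and 1278 in DMSO, and 807, 982 and 790, then 1122 and 1154 in EPZ-6438 (0.43 ± 0.14 and 0.41 ± 0.14, adjusted p = 0.027 and 0.03). CEBPG was higher in both treatments (0.31 and 0.46) and CEBPB in DMSO (0.33). All 7 factors were thus called in DMSO, where 6 were higher, and 4 were called in EPZ-6438, where 3 were higher. Over all genes 23.1% were higher and 24.6% lower in DMSO, and 26.8% higher and 26.9% lower in EPZ-6438. On rescaling to equal totals the DMSO rises of ATF4, ATF5, CEBPB, CEBPG and DDIT3 were lost.

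The factor that fell was NUPR1, with 329 and 677 normalized counts in DMSO NTG and 145, 163 and 288 in DMSO siMCRS1, and 367, 979 and 650 in EPZ-6438 NTG and 122 and 287 in EPZ-6438 siMCRS1. Its NTG libraries varied widely, and the siMCRS1 libraries lay below them in each treatment. The fold changes were -1.31 ± 0.48 and -1.72 ± 0.48 (adjusted p = 0.044 and 0.012), and the DMSO call was lost in 7 of 20 alternatives.

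Both phosphatase subunits that act on eIF2 alpha were higher with siMCRS1. PPP1R15B went from 2362 and 2436 to 4095, 5137 and 4349 in DMSO and from 1828, 1918 and 1943 to 3864 and 4630 in EPZ-6438 (0.91 ± 0.12 and 1.16 ± 0.12, adjusted p = 1.6e-04 and 2.7e-05). PPP1R15A went from 1258 and 1460 to 2039, 2787 and 2608 and from 863, 1310 and 1028 to 1610 and 2190 (0.86 ± 0.20 and 0.84 ± 0.20, adjusted p = 4.7e-03 and 4.5e-03). Neither gene overlapped between siMCRS1 and NTG in either treatment. EIF2S1 passed in EPZ-6438 (0.48 ± 0.13, adjusted p = 8.6e-03) and not in DMSO (0.25 ± 0.13, 0.14). The kinase genes did not pass: EIF2AK3 held 1854 and 1956, then 1893, 2314 and 2078 in DMSO, and 2006, 2070 and 2238, then 2097 and 2159 in EPZ-6438 (0.13 and 0.02), and EIF2AK4 was at -0.13 and 0.11.

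Of the 19 ATF4 targets, 4 were higher in DMSO and 6 in EPZ-6438, and 3 were lower in each, with medians of 0.11 and 0.25. Over all genes 23.1% and 26.8% were higher, and 24.6% and 26.9% lower. TRIB3 rose from 4188 and 3869 to 7135, 9131 and 7622 in DMSO and from 3217, 3875 and 3365 to 5420 and 7580 in EPZ-6438 (0.98 ± 0.15 and 0.88 ± 0.15, adjusted p = 5.2e-04 and 7.3e-04). SLC7A1 rose from 3869 and 4543 to 5890, 7411 and 7402 and from 3007, 4393 and 3834 to 5642 and 7126 (0.71 ± 0.17 and 0.78 ± 0.17, adjusted p = 6.2e-03 and 3.1e-03). SLC3A2 rose from 6679 and 6399 to 9648, 10719 and 9028 and from 5634, 5412 and 5065 to 8589 and 9602 (0.58 ± 0.10 and 0.76 ± 0.10, adjusted p = 1.0e-03 and 1.5e-04). The siMCRS1 libraries of all 3 genes were above NTG without overlap. In DMSO the siMCRS1 libraries lay wholly above NTG in 20 of 44 members and wholly below in 7. Of the 44, 14 were called higher and 4 lower. The share of all genes without overlap was not computed. SARS, the seryl-tRNA synthetase, was also higher in both (0.35 and 0.37), and MTHFD2 and DDIT4 were higher in EPZ-6438 (0.59 and 0.57), the DDIT4 call being lost in 11 of 20 alternatives.

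Against these, SHMT2 fell from 6126 and 5404 to 2753, 2207 and 2223 in DMSO and from 5210, 6601 and 4948 to 2015 and 1588 in EPZ-6438 (-1.27 ± 0.16 and -1.63 ± 0.16, adjusted p = 1.3e-04 and 2.0e-05). PSPH fell from 3338 and 2763 to 2292, 1723 and 1766 and from 2964, 2504 and 2366 to 1862 and 1781 (-0.67 ± 0.15 and -0.51 ± 0.15, adjusted p = 3.7e-03 and 0.013). AARS fell from 9499 and 8590 to 7323, 7212 and 6102 and from 8479, 10999 and 8146 to 6733 and 7362 (-0.40 ± 0.14 and -0.37 ± 0.14, adjusted p = 0.035 and 0.041). SHMT2 kept its call in all 20 alternatives of both treatments, PSPH lost it in 1 each, and AARS in 6 and 8. PHGDH and ASNS, which were much lower with the INO80 siRNAs, did not pass: PHGDH was at -0.28 ± 0.13 and -0.31 ± 0.13, and ASNS at 0.11 ± 0.19 and 0.32 ± 0.19. VLDLR did not pass (0.21 ± 0.53 and 0.81 ± 0.53), with 50.6 normalized counts in EPZ-6438 NTG replicate 1 and 116 and 196 in the other libraries of that group.

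**Figure D4:**
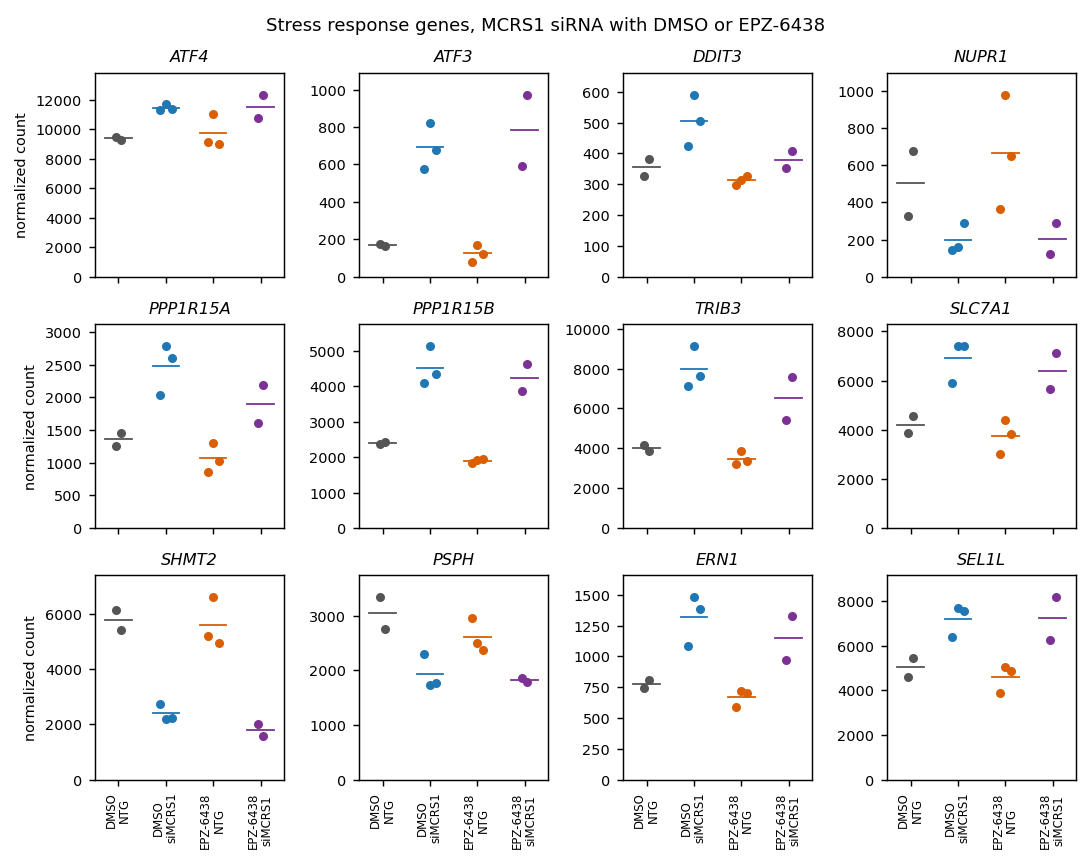
Each panel plots 1 gene in the drug experiment, with normalized counts from 0 on the vertical axis, 1 point per library (2 or 3 per group) and a line at the group mean. ATF3, PPP1R15A, PPP1R15B, TRIB3, SLC7A1, ERN1 and SEL1L lie higher and SHMT2, PSPH and NUPR1 lower with siMCRS1 than with NTG in the same treatment.

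In the unfolded protein response, ERN1 rose from 741 and 811 to 1085, 1479 and 1384 in DMSO and from 588, 721 and 701 to 974 and 1324 in EPZ-6438 (0.75 ± 0.17 and 0.77 ± 0.17, adjusted p = 4.3e-03 and 3.1e-03). XBP1 held 10948 and 9254, then 13730, 13687 and 10569 in DMSO, where groups overlapped (0.32 ± 0.14, adjusted p = 0.078), and 10420, 10803 and 8910, then 15437 and 15259 in EPZ-6438, where they did not (0.62 ± 0.14, 3.3e-03). ATF6 did not pass, with 2422 and 2329, then 2221, 2588 and 2222, and 2347, 2719 and 2319, then 2394 and 2586 (-0.02 and 0.02, both with an SE of 0.11). Of the 10 targets, 1 was higher in DMSO and 3 in EPZ-6438, beside 23.1% and 26.8% of all genes, and 0 were lower, beside 24.6% and 26.9%. The gene called in both was SEL1L, from 4620 and 5439 to 6415, 7680 and 7576 and from 3881, 5031 and 4866 to 6274 and 8177 (0.52 ± 0.15 and 0.65 ± 0.15, adjusted p = 0.016 and 4.3e-03).

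In EPZ-6438, MANF rose from 415, 324 and 381 to 634 and 501 (0.60 ± 0.17, adjusted p = 0.011) and PDIA6 from 24725, 22433 and 20912 to 29504 and 29882 (0.39 ± 0.12, adjusted p = 0.016). With quantile normalization PDIA6 turned to -0.03. HERPUD1 and EDEM1, lower with both INO80 siRNAs, were at -0.09 and -0.21 in DMSO and at -0.07 and 0.03 in EPZ-6438, and did not pass. On rescaling to equal totals both were called lower in DMSO (-0.32 and -0.44), as the 2 targets then called, SEL1L being lost, and HERPUD1 was called lower in EPZ-6438 (-0.31). Quantile normalization also called these 3 differences lower. With the deposited scaling, but without DMSO NTG replicate 1 or DMSO siMCRS1 replicate 2 there were 0 called targets in DMSO. The EPZ-6438 count was 1 without either of its siMCRS1 libraries.

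EPZ-6438 itself changed 0 of 44 members in NTG cells and 0 of 44 in siMCRS1 cells by limma, and edgeR also called 0; over all genes 0.384% and 0.0908% were called. At an unadjusted p under 0.05 there were 7 members in NTG cells and 3 in siMCRS1 cells, with log2 differences over all members between -0.83 and 0.38, and between -0.41 and 0.42. The member nearest to a call in NTG cells was EDEM1 (-0.43 ± 0.11, adjusted p = 0.1). The interaction of siMCRS1 and EPZ-6438, which tests whether siMCRS1 acts differently in the 2 treatments, was called for 0 of 44 members and for 0% of all genes, with 1 member at an unadjusted p under 0.05 and 0 by edgeR. The larger EPZ-6438 value of ATF3 was therefore not shown to differ from the DMSO value (0.66 ± 0.42 for the difference).

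The experiments share no library, so calls can be set side by side, each made within its own table. A total of 10 of 44 members (22.7%) were lower with an INO80 siRNA and higher with siMCRS1 in either treatment, where 3.21% of 13534 genes tested in both were. They were ATF4, DDIT3, CEBPB, CEBPG, SLC3A2, SLC7A1, SARS, MTHFD2, DDIT4 and XBP1. For siINO80#2 and DMSO alone there were 7 such members, against 1.29% of all genes, which is 7 of the 28 members lower with siINO80#2 and 7 of the 14 higher with siMCRS1. Members lower in both were 4 (NUPR1, PSPH, SHMT2 and AARS), against 16.3% of all genes, and members higher in both were 3 (ATF5, PPP1R15A and SEL1L), against 15.5%. On equal totals these counts became 9 members lower in both, against 23.4% of all genes, and 1 higher in both, against 9.35%. With quantile normalization they became 8, against 16.4%, and 2, against 15.8%. On rescaling to equal totals the members lower with an INO80 siRNA and higher with siMCRS1 were 4 (CEBPG, SLC3A2, SLC7A1 and XBP1), against 1.21% of all genes, and with quantile normalization 5 (CEBPB, CEBPG, DDIT3, SLC3A2 and SLC7A1), against 1.77%. The rise of ATF4 in DMSO passed with the deposited scaling and with edgeR's TMM and RLE, stood at 0.05 without passing on equal totals, and turned to -0.03 with quantile normalization, and it was kept in 8 of 20 alternatives. The 2 INO80 siRNAs entered this count through shared NTG libraries.

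**Figure D5:**
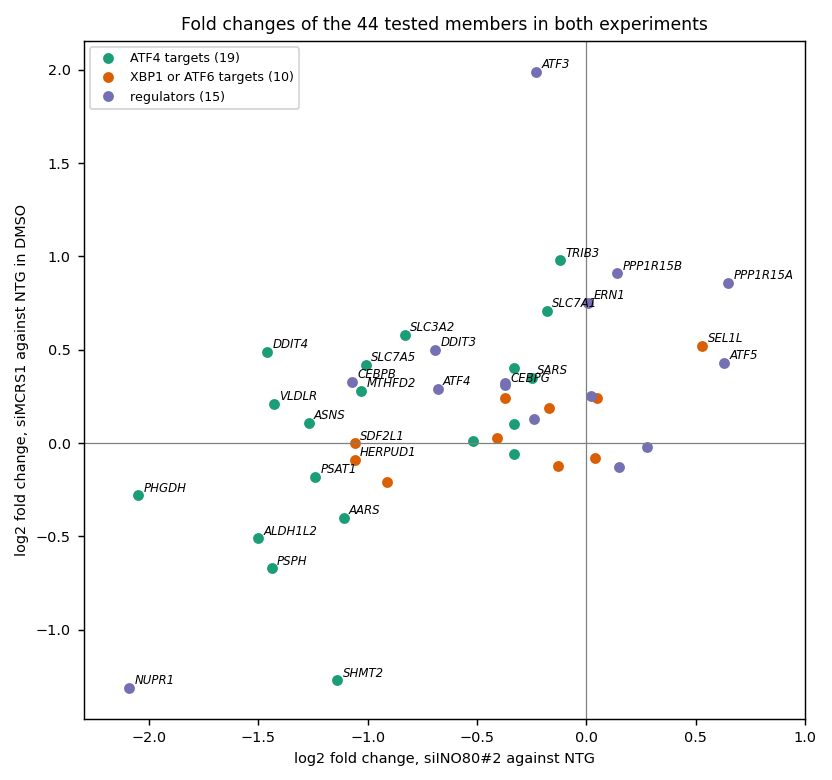
The log2 fold change with siINO80#2 (horizontal axis) is plotted against that with siMCRS1 in DMSO (vertical axis) for the 44 tested members, 1 point per gene and coloured as ATF4 targets (19), XBP1 or ATF6 targets (10) or regulators (15). NUPR1, SHMT2, PSPH and AARS lie lower left, ATF5, PPP1R15A and SEL1L upper right, and SLC3A2, DDIT3 and ATF4 upper left.

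A second list held 20 ATF4 targets that are not among the members. It too was chosen with earlier results of these data known. Of 19 tested, 14 were lower and 3 higher with siINO80#1, and 14 were lower and 4 higher with siINO80#2. PCK2, a mitochondrial gluconeogenic enzyme, was at -1.19 and -1.95, SHMT1, the cytosolic partner of SHMT2, at -0.95 and -1.81, and SLC6A9, a glycine transporter, at -1.22 with siINO80#1. GDF15, a secreted stress hormone, was higher at 0.97 and 1.15, with SLC38A2, a neutral amino acid transporter, at 0.37 and 0.60 and GADD45A, a growth arrest protein, at 0.49 and 0.51. With siMCRS1, 9 were higher in DMSO and 10 in EPZ-6438, beside 23.1% and 26.8% of all genes, and 6 were lower in each, beside 24.6% and 26.9%. GDF15 was at 1.85 and 1.99, SLC7A11, the cystine carrier, at 1.27 and 1.79, and JDP2, a repressor of the AP-1 family, at 1.24 and 1.14, while PCK2 was at -2.23 and -2.80 and SLC43A1, another neutral amino acid transporter, at -1.65 and -1.83. SLC7A11 and JDP2 were lower with the INO80 siRNAs (-0.46 and -0.69, -0.76 and -1.06).

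The shares of all genes higher and lower were 20.7% and 20.8% with siINO80#1, 26.6% and 28.4% with siINO80#2, 23.1% and 24.6% with siMCRS1 in DMSO, and 26.8% and 26.9% in EPZ-6438, and the counts of the other lists stand beside these. Of 26 other unfolded protein response genes tested, 8 were higher and 4 lower with siINO80#1, 6 higher and 11 lower with siINO80#2, 12 higher and 4 lower with siMCRS1 in DMSO, and 11 higher and 3 lower in EPZ-6438. MBTPS1, the protease that makes the first cut of ATF6, was higher in all 4 comparisons (1.02, 1.27, 1.30 and 1.40), and CREB3L3, a liver-enriched relative of ATF6, was lower in all 4 (-1.32, -0.95, -2.26 and -2.00), as was EDEM2 (-1.12, -1.51, -0.97 and -0.82). ATF6B was higher with the INO80 siRNAs (1.09 and 0.85) and was at 0.03 and -0.02 with siMCRS1. Among 10 other controls of the integrated stress response, EIF2B5 and EIF2B1, subunits of the exchange factor of eIF2, were lower in all 4 comparisons (-0.43, -1.07, -0.49 and -0.38 for EIF2B5), and EIF2B2 was lower with siMCRS1 (-0.94 and -1.20). In that list 1 gene was higher and 2 lower with siINO80#1, 1 and 3 with siINO80#2, 1 and 3 with siMCRS1 in DMSO, and 2 and 3 in EPZ-6438. Of the 16 other synthetases 3 were higher and 5 lower with siMCRS1 in DMSO, and 5 and 5 in EPZ-6438, with QARS at -1.42 and -1.67 and VARS at -1.35 and -1.80.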

How the data were processed

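The authors deposited, for each experiment, a table of a never-negative signal per gene symbol: gene counts divided by a size factor of each library. The submitters' processing notes name kallisto, DESeq2 and the build GRCh38, without versions. The annotation, and whether strand was used for these stranded libraries, is not given in the sources used here, and the text of the paper does not describe these libraries. Of the 45 members, 18 overlap another RefSeq gene and 10 have a named pseudogene, and their values are uncertain to that extent. Dividing each value by its library's smallest step gave whole numbers (within 0.1) for 100% of values, called recovered counts. They may be rounded estimates.

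Values were tested as log2(value + 1), which understates changes of low genes, for genes with a mean of at least 10 in the experiment, with limma 3.58.1 in R 4.3.3 (all groups of an experiment in 1 fit, group as the term, eBayes with a trend). Calls were made at a Benjamini-Hochberg adjusted p under 0.05 over all genes tested, and errors are SE. Lack of overlap between groups is only described beside the tests, and its share over all genes was not computed. Tables were tested apart. Alternatives were a pseudocount of 0.1 or 5, no filter or a mean of at least 50, equal totals, quantile normalization, eBayes without a trend, only the groups compared, edgeR 4.0.16 (quasi-likelihood, TMM or RLE) on recovered counts, each library left out, and the replicate letter as a block. Scripts were tested on simulated data. Python 3.11.15 with pandas 2.3.3, numpy 2.4.6 and matplotlib 3.10.9 was used for the rest.

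The members and lists were chosen with earlier results of these data known. Values in every library are given for 10 regulators and, per comparison, for up to 3 ATF4 targets and 3 XBP1 or ATF6 targets per direction with the largest called fold change and a mean of at least 50; other genes named were chosen for their role after their values were seen. Groups came from the labels. Drug columns carry numbers where the labels have letters and were mapped to groups only. The authors' tables hold no comparison columns.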

Additional observations from a re-analysis of the deposited data

How the results depend on the processing

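Each count was recomputed under 11 settings (10 in the drug experiment) and with each library left out; where 1 library remained in a group, it was assumed to vary like the other groups. Members called ranged from 21 to 30 (20 to 30 with a library left out) of 44 for siINO80#1, from 29 to 33 (28 to 32) for siINO80#2, from 14 to 21 (9 to 20) for siMCRS1 in DMSO and from 19 to 22 (10 to 22) in EPZ-6438, and stayed at 0 for EPZ-6438 and the interaction. ATF4 targets lower ranged from 15 to 17 (14 to 17) and from 16 to 18 (16 to 17). For siINO80#2 against siINO80#1 the 7 members became 4 on rescaling to equal totals, without a trend and with only the groups compared, and 3 to 14 with a library left out. Members higher with siMCRS1 became 7 in DMSO and 10 in EPZ-6438 on rescaling to equal totals, 11 in EPZ-6438 with quantile normalization, and 7 to 16 and 8 to 19 with a library left out. Quantile normalization reversed ATF4 (-0.03) and NARS (-0.31) in DMSO, and NARS (-0.26) and PDIA6 (-0.03) in EPZ-6438; the cause was not tested. Rescaling to equal totals moved the median of all genes to -0.08 and -0.11 for the INO80 siRNAs and the share of called genes that were higher from 49.9% to 39.8% and from 48.3% to 38.7%. XBP1 or ATF6 targets called with siINO80#1 became 7, from 3, without siINO80#2 replicate C or with only the groups compared.

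Same-lettered libraries of the INO80 experiment had a mean correlation of deviations of 0.103 (-0.0766 to 0.263, 9 pairs) against -0.0515 for other pairs. Deviations were taken from the mean of each group, which ties these means to each other. The range of other pairs, -0.246 to 0.104, overlapped that of same-lettered pairs. Whether same-lettered libraries share a batch or culture was not tested. With the letter as a block, 27, 33 and 8 members were called for the 3 comparisons, in place of 23, 32 and 7. No paired analysis was possible for the drug experiment because its columns carry other replicate names than the labels.

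Members called in every alternative numbered 20 of 23, 26 of 32, 3 of 7, 7 of 18 and 7 of 21 in the order of the report.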
